A study of Mus musculus with 2 samples.

Results

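The regions described are 417 broad peaks of 5-hydroxymethylcytosine (5hmC) that mouse mast cells showed both with and without TET2 and that lay outside dense groups of peaks. They were taken from 18160 peaks of the Tet2+/+ library, 17882 of them on the 19 autosomes. A peak was included if it was autosomal, at least 600 bp wide, overlapped a peak of the Tet2-/- library by 1 bp or more, and overlapped no region that the authors called higher in either library in a direct comparison. It also had fewer than 3 other Tet2+/+ summits within 50 kb of its own summit, the summit being the position of highest coverage. Width, sharing and spacing therefore chose the peaks and are given as a description only.

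Cells were bone marrow-derived mast cells from C57BL/6 mice of 6 to 12 weeks, grown from marrow in interleukin-3, a growth factor that keeps mast cells alive. There was 1 library from Tet2+/+ cells and 1 from Tet2-/- cells, and the labels name no deletion restricted to a cell type. Cells of both genotypes were sorted after 4 weeks for surface Kit and FcεRIα, the receptors for stem cell factor and IgE, because knockout cultures matured less well, per the labels. Cells came from 2 animals per genotype, and whether their DNA was pooled is not given in the sources used here. With 1 library per genotype there is no replicate spread, so no p-value is given. Intervals of shares and medians treat the regions of these libraries as independent draws, and those of single regions cover counting error. None covers the spread between animals or libraries. A lower signal from fewer cells carrying 5hmC and from less 5hmC per cell cannot be told apart. The mast cell label was not checked against marker genes, since no gene annotation of the mm9 build was used.

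TET enzymes oxidise methylated cytosine in DNA to 5hmC, an intermediate on the way to unmethylated cytosine that can also persist as a mark of its own. TET2 is the family member most often mutated in blood cancers, and TET1 and TET3 catalyse the same reaction. 5hmC is commonly found at enhancers and along the bodies of transcribed genes, so an enriched stretch can run well past a single DNA fragment. In the pulldown used here fragments carrying 5hmC were tagged with glucose and biotin, captured and sequenced. A wide peak is therefore a stretch in which captured fragments start and end over a longer distance.

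The background of the Tet2+/+ library was 1.46 fragments per position and that of the Tet2-/- library 1.72, a depth ratio of 1.18. Tet2-/- fragment counts are called depth-scaled where they were divided by this ratio. Read totals were not analysed here. Over all 8306 autosomal pairs of peaks with summits within 100 bp, depth-scaled coverage in Tet2-/- was a median of 0.871 times that in Tet2+/+, a shift of -0.20 on the log2 scale that every ratio given for single regions should be read against.

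Broad peaks were a small and strong class. Of the autosomal Tet2+/+ peaks, 1039 (5.81%, 95% exact Clopper-Pearson interval 5.47 to 6.16) were at least 600 bp wide. Of these broad peaks, 981 (94.4%, 92.8 to 95.7) overlapped a Tet2-/- peak, against 59.0% of the narrower autosomal peaks and 61.0% of all. Among the 981, 264 overlapped a directly called region, 253 of them a region higher in Tet2+/+ and 11 a region higher in Tet2-/-. Another 300 lay inside dense neighbourhoods, which left the 417 analysed. Since the rule left out direct calls, it limits how far the libraries can differ at the summits of these 417.

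The 417 broad shared peaks had a median width of 660 bp, from 600 to 1583 bp, and 95% of them were 866 bp or narrower. At the lower limit the choice was arbitrary: a member of 600 bp on chromosome 11 at 60364102 to 60364701 had 52 fragments at its summit, and a peak of 599 bp on chromosome 16 at 75821102 to 75821700, just outside, had 41. A second member of 600 bp, on chromosome 4 at 53198834 to 53199433, had 29 fragments, and a second excluded peak of 599 bp, on chromosome 1 at 154276965 to 154277563, had 23. The authors' deposited fold, which by its values appears to set the summit against coverage nearby in the same library, without an input library, had a median of 7.66 in Tet2+/+, against 5.90 in the 5322 narrower shared peaks chosen in the same way. The median summit was covered by 26 Tet2+/+ fragments, against 17 in the narrower peaks. By −log10 q, a measure of how far a peak exceeds chance after adjustment, 304 of the 417 (72.9%) ranked in the strongest quartile of the Tet2+/+ list. The share was 28.2% in the narrower shared peaks. Other broad shared peaks were higher by their medians. Those inside dense neighbourhoods had 29 fragments and a −log10 q of 15.1, and those overlapping a direct call 40 and 23.6, against 26 and 14.2 in the 417. Among the broad shared peaks width and height had a Spearman correlation of 0.16 across the 417 regions, which share 1 library and a range of widths cut off at 600 bp. It was 0.59 across the 5322 narrower peaks. The summit lay in the middle 50% of the peak in 357 of them (85.6%) and nearer an edge in the rest.

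Without TET2 these regions were, by the rule, still marked, and the marked stretch was shorter in most of them. The widest overlapping Tet2-/- peak had a median width of 514 bp, and Tet2-/- peaks covered a median of 74.6% of the bases of a broad peak (order-statistic interval of the median 72.6 to 76.9). The median length outside any Tet2-/- peak was 174 bp. Over all 417 regions, 212048 of 288494 bases (73.5%) lay under a Tet2-/- peak. In 114 regions (27.3%) the Tet2-/- peak was itself at least 600 bp wide, against 4.52% of all shared autosomal peaks outside direct calls. In 45 regions (10.8%) it was wider than the Tet2+/+ peak, against 44.1% of all shared autosomal peaks outside direct calls. Regions picked for a wide Tet2+/+ peak will tend to have a narrower partner whatever the genotype does, so these shares alone say nothing of TET2.

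**Figure D1:**
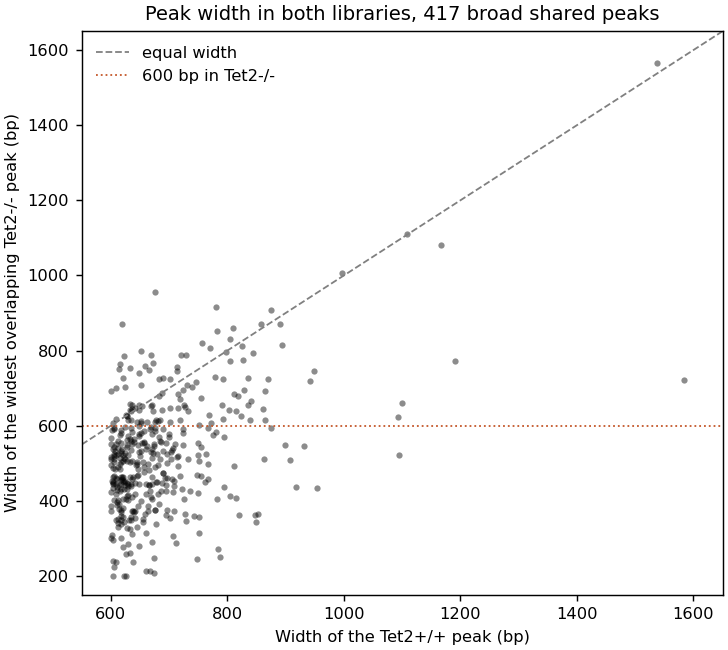
Width of each of the 417 broad shared peaks in Tet2+/+ (x axis, bp) against the width of the widest overlapping Tet2-/- peak (y axis, bp), with 1 point per region. Most points lie under the dashed line of equal width, 45 lie above it, and 114 reach the dotted line at 600 bp in Tet2-/-.

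A region picked for a wide Tet2+/+ peak will tend to enclose its partner, so the following positions are a description only. They were not counted for other shared peaks. The Tet2-/- peak with the nearest summit lay entirely inside the Tet2+/+ peak in 255 regions (61.2%), reached past it on a single side in 142 (34.1%) and enclosed it in 20 (4.80%). Full coverage of every base was seen in 20 regions (4.80%), against 20.5% of the narrower shared peaks. In 40 (9.59%, 6.94 to 12.8) less than 50% of the bases were covered, close to the 7.52% (6.82 to 8.26) of the narrower shared peaks. The lowest share was 18.6%, on chromosome 6 at 120404237 to 120404897, where a Tet2-/- peak of 315 bp overlapped 1 end of a 661 bp region. Wider regions had a wider partner: in the 287 regions of 600 to under 700 bp the median Tet2-/- width was 491 bp, in the 81 of 700 to under 800 bp it was 548 bp, and in the 49 of 800 bp or more it was 666 bp. The share with a Tet2-/- peak of at least 600 bp was 17.1%, 38.3% and 69.4% in these classes. The median coverage of bases lay between 72.7% and 79.2% in these classes of width. Regions with summits within 100 bp were also split into quartiles by the summed fragments of both libraries. A median of 59.1% of bases was covered in the lowest quartile and 82.2% in the highest. The sum includes the height of the Tet2-/- peak that does the covering, so this rise is a description only.

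The libraries were also exchanged in the rule, so that regions were picked for a wide Tet2-/- peak. The 2 sets differ in library depth and in the summits counted as neighbours as well. The part of the choice in the shorter partner was therefore not measured. Under the exchanged rule 245 Tet2-/- peaks were broad, shared and outside dense neighbourhoods, against 417 in Tet2+/+. The Tet2-/- library was the deeper by its background, and the part of depth in these numbers was not tested. The Tet2+/+ partners of the 245 were also narrower, with a median width of 576 bp beside 657 bp. They covered a median of 84.2% of the bases of the 245 peaks, more than the 74.6% found in the other direction. A Tet2+/+ peak of at least 600 bp overlapped 114 of the 245 (46.5%, 40.2 to 53.0), and the Tet2+/+ peak was the wider of the pair in 75 (30.6%). Both rules chose 98 regions in common, which is 23.5% of the Tet2+/+ set and 40.0% of the Tet2-/- set. Pairs with summits within 100 bp, outside direct calls and outside neighbourhoods dense in Tet2+/+ summits, were also taken by the mean of both widths, so that neither width alone decided. Of these, 149 pairs had a mean of at least 600 bp. The Tet2+/+ peak was the wider in 103 of them (69.1%, 61.0 to 76.4), and in 2481 of all 4397 such pairs (56.4%, 54.9 to 57.9).

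At equal depth-scaled summit coverage, shared peaks of the Tet2-/- library were less often broad, with intervals apart only at 30 to under 50 fragments. Shared peaks outside dense neighbourhoods and direct calls were grouped by depth-scaled summit coverage. At 30 to under 50 fragments, 136 of 474 Tet2+/+ peaks (28.7%, 24.7 to 33.0) were at least 600 bp wide, against 63 of 396 Tet2-/- peaks (15.9%, 12.4 to 19.9). At 20 to under 30 fragments the shares were 10.7% (9.20 to 12.2) and 7.88% (6.46 to 9.49), whose intervals overlap. Overlap of intervals does not show that shares are equal. Below 20 fragments the intervals also overlapped, with 3.35% and 2.83% at 15 to under 20 fragments and 0.766% and 0.592% at 10 to under 15. The median width was 534 bp in Tet2+/+ and 508 bp in Tet2-/- at 30 to under 50 fragments, and 434 and 432 bp at 20 to under 30. Over all autosomal peaks of 30 to under 50 fragments, with none left out, the shares were 26.2% in Tet2+/+ and 14.6% in Tet2-/-. At 15 to under 20 fragments they were 2.16% and 2.25%, the Tet2-/- share being the higher. At 50 or more fragments 28 of 54 Tet2+/+ peaks (51.9%, 37.8 to 65.7) and 18 of 52 Tet2-/- peaks (34.6%, 22.0 to 49.1) were broad, and the intervals overlap. Over all autosomal peaks of 50 or more fragments the shares were 52.3% (45.5 to 59.0) in Tet2+/+ and 30.3% (23.6 to 37.7) in Tet2-/-, with intervals apart. Which classes had intervals apart thus depended on the set of peaks, and also on the scaling. Without depth scaling the shares of shared peaks were 28.7% and 12.4% at 30 to under 50 fragments, 10.7% and 4.71% (3.81 to 5.75) at 20 to under 30, and 3.35% (2.60 to 4.24) and 1.43% (0.955 to 2.07) at 15 to under 20. At 50 or more they were 51.9% and 27.9% (19.8 to 37.2), so that the intervals of every class from 15 fragments upwards were then apart. These intervals are taken over peaks of 1 library per genotype, so they compare the libraries and not the genotypes. Fragment length in the sequenced libraries was not analysed here, and its part in peak width was not tested.

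**Figure D2:**
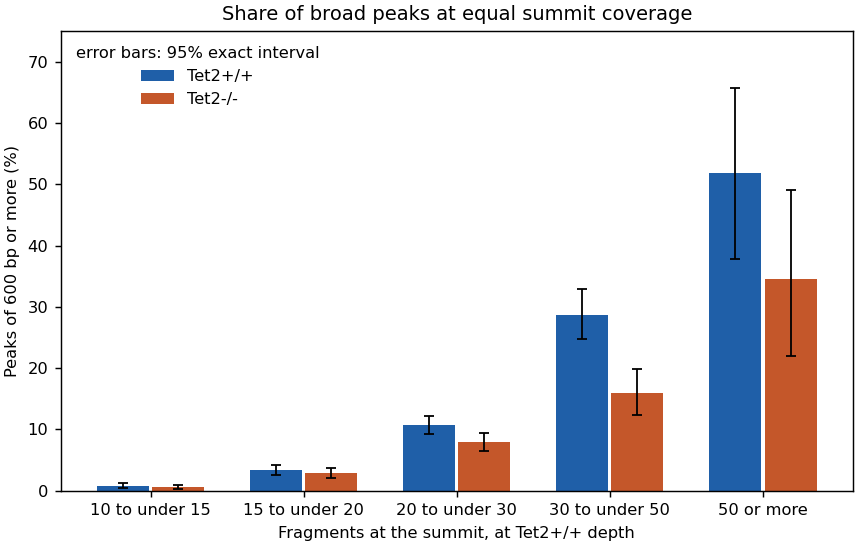
Share of own peaks at least 600 bp wide (y axis, percent) among shared peaks outside dense neighbourhoods and direct calls, by depth-scaled fragments at the summit (x axis), for Tet2+/+ (blue) and Tet2-/- (orange). Error bars are 95% exact intervals; at 30 to under 50 fragments the bars stand at 28.7% and 15.9%, and in the other classes the intervals overlap, although without depth scaling those from 15 fragments upwards do not.

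The 8 widest regions showed how the partner peaks differed. The widest, on chromosome 1 at 87488429 to 87490011 (1583 bp), had 37 fragments at its Tet2+/+ summit, and Tet2-/- cells had 2 peaks there of 722 and 594 bp, with 43 and 44 fragments and 140 bp between them. The next, on chromosome 4 at 3016751 to 3018287 (1537 bp, 73 fragments), had a wider Tet2-/- peak, 1566 bp with 84 fragments and its summit 363 bp away. The region on chromosome 2 at 98506391 to 98507499 (1109 bp) had 221 Tet2+/+ and 234 Tet2-/- fragments, and its borders in the libraries differed by 1 bp on each side. These last 2 regions were covered to 99.7% and 100% by the Tet2-/- peak.

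Shorter partners were seen at 4 more of the widest regions. On chromosome 13 at 37329847 to 37331036 (1190 bp) 30 Tet2+/+ fragments stood beside 43 Tet2-/- fragments in a peak of 771 bp. On chromosome 15 at 74915911 to 74917010 (1100 bp) the first of 2 Tet2-/- peaks was nearly as high as the Tet2+/+ peak, 62 fragments against 63, and a gap of 224 bp parted it from a second peak of 36 fragments. On chromosome 18 at 80375409 to 80376503 (1095 bp, 42 fragments) the Tet2-/- library again had 2 peaks, of 30 and 41 fragments. On chromosome 6 at 134665610 to 134666702 (1093 bp) the Tet2-/- peak of 623 bp covered only 48.7% of the bases. Its summit of 40 fragments lay 580 bp from the Tet2+/+ summit of 22 fragments, so these counts belong to different positions. The region on chromosome 1 at 166370922 to 166372087 (1166 bp, 43 fragments) kept 92.6% of its bases in a Tet2-/- peak of 32 fragments. The widest regions thus included both nearly equal outlines and stretches that were called as separate pieces in Tet2-/-.

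**Figure D3:**
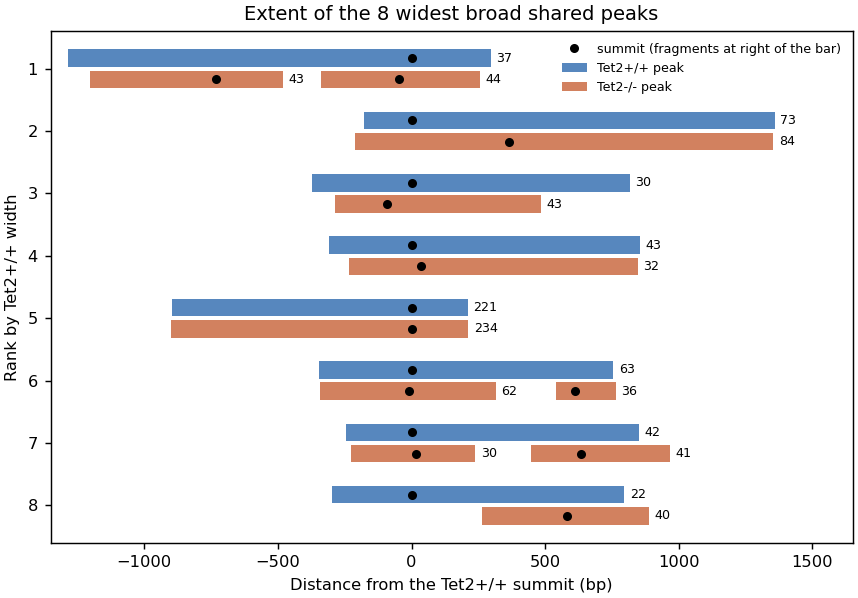
Extent of the 8 widest broad shared peaks in Tet2+/+ (blue) and of the overlapping Tet2-/- peaks (orange), as distance from the Tet2+/+ summit (x axis, bp), ranked by width (y axis). Black points mark summits and the numbers give fragments at the summit, not scaled for depth. Ranks 1, 6 and 7 have 2 Tet2-/- peaks, and ranks 2 and 5 have a Tet2-/- peak of nearly the same extent.

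Over all 417 regions, 15 (3.60%, 2.03 to 5.86) were overlapped by 2 Tet2-/- peaks and 402 by 1. Among the narrower shared peaks 11 of 5322 (0.207%) had 2, but a narrow peak has less room for both. The gap between the 2 Tet2-/- peaks ran from 62 to 271 bp with a median of 140 bp, and the regions concerned were 604 to 1583 bp wide. Of the 15, 7 were at least 800 bp wide. On chromosome 15 at 80327099 to 80327753 the 2 Tet2-/- peaks had 18 and 15 fragments beside 14 at the Tet2+/+ summit, with 134 bp between them. On chromosome 5 at 143508605 to 143509208 they had 15 and 18 fragments beside 15 in Tet2+/+, with 214 bp between them. On chromosome 10 at 17580454 to 17581090 a peak of 36 fragments and one of 12 stood beside 26 in Tet2+/+. The pieces were thus of similar height in some regions and unequal in others.

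At the summit the median ratio of the broad shared peaks was close to that of all autosomal pairs, and a smaller share of them differed by 1.5-fold or more. In 304 of the 417 (72.9%) the summits of the libraries lay within 100 bp, and ratios of height are given for these regions alone. The median depth-scaled coverage in Tet2-/- was 0.883 times that in Tet2+/+ (order-statistic interval 0.848 to 0.905, interquartile range 0.758 to 1.03), or 1.01 times when the median of all autosomal pairs was used as the depth ratio, so whether it counts as lower depends on the scaling. The values for other classes of pairs were 0.906 for the 4093 narrower shared peaks and 0.920 for the 199 broad ones inside dense neighbourhoods. Coverage was lower in Tet2-/- in 211 of the 304 (69.4%), against 66.6% of all autosomal pairs, but in 138 (45.4%, 39.7 to 51.2) once the general shift was removed, against 45.2% of the narrower shared pairs. It was lower by 1.5-fold or more in 31 (10.2%, 7.03 to 14.2), against 20.8% of all autosomal pairs, which include the directly called regions that the rule left out, and 14.1% of the narrower shared pairs. It was higher by 1.5-fold or more in 6 (1.97%, 0.728 to 4.25), against 5.35% of all autosomal pairs and 5.01% of the narrower shared pairs. The broad peaks had more fragments per summit than the narrower ones, and the part of counting error in these shares was not tested. Across the 304 regions the fragment counts of the libraries had a Spearman correlation of 0.79.

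**Figure D4:**
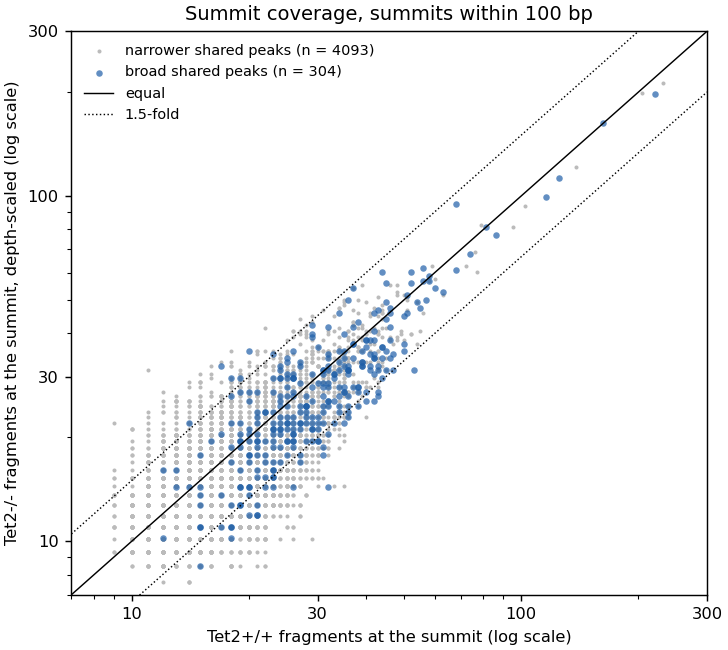
Fragments at the summit in Tet2+/+ (x axis, log scale) against depth-scaled fragments in Tet2-/- (y axis, log scale) for pairs with summits within 100 bp, with 304 broad shared peaks in blue and 4093 narrower shared peaks in grey. The solid line marks equal coverage and the dotted lines a 1.5-fold difference; 31 broad peaks lie at or under the lower dotted line and 6 at or over the upper one, and the position of the cloud relative to the solid line depends on the depth ratio used.

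The regions of highest −log10 q had depth-scaled ratios between 0.855 and 1.01. The leading region, on chromosome 12 at 75904809 to 75905612, was covered by 116 fragments in Tet2+/+ (95% Poisson interval 95.9 to 139) and 117 in the deeper Tet2-/- library (96.8 to 140), a depth-scaled ratio of 0.855. The next, on chromosome 12 at 68160081 to 68160954, had 125 and 133 fragments (0.902). Both lay in Tet2-/- peaks slightly wider than their own, 832 bp beside 804 bp and 909 bp beside 874 bp, and far from other peaks, the nearest Tet2+/+ summits being 526417 and 1921642 bp away. Of the other leading regions, chromosome 11 at 101066437 to 101067151 had 81 and 96 fragments, chromosome 8 at 90662993 to 90663671 had 74 and 80, chromosome 11 at 23557717 to 23558372 had 86 and 91, and chromosome 16 at 13339920 to 13340589 had 68 and 72.

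Of those 8 leading regions, 2 stood apart in their surroundings. The chromosome 2 regions at 98502390 to 98503186 and 98506391 to 98507499 had 162 and 221 Tet2+/+ fragments, but the peak caller also expected 35.2 at each from the surrounding sequence, against a median of 2.68 over the 417 regions. In Tet2-/- the expectation was 39.2 and 39.0. Both had the same borders in the libraries to within 1 bp. An expectation over 10 was found at 2 of the 417 regions and at 39 of the 17882 autosomal Tet2+/+ peaks (0.218%). Repeated sequence was not masked, and its part in these regions was not tested. Without them the median coverage of bases was 74.3% and the median ratio 0.883.

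Ratios at either end of the range came from regions of 14 to 42 fragments. Among paired regions with at least 20 fragments in either library, the lowest ratio was 0.450 (95% interval from counting error 0.235 to 0.836), on chromosome 9 at 57155394 to 57156063, with 32 Tet2+/+ and 17 Tet2-/- fragments. Next came chromosome 3 at 19219967 to 19220604 with 26 and 17 fragments (0.554), and chromosome 2 at 145306342 to 145306945 and chromosome 9 at 115605464 to 115606174, each with 21 and 14 fragments (0.565). Of these 4 intervals, that of the first alone leaves out 1. The partner peaks were short, 200 to 290 bp wide. At the chromosome 9 region at 57155394 and the chromosome 3 region there were 2 of them each, which together covered 44.0% and 70.1% of the bases, and at the other regions a single one covered 33.1% and 40.5%. At the other end, chromosome 2 at 157813711 to 157814425 had 17 Tet2+/+ and 38 Tet2-/- fragments, a ratio of 1.90 (1.04 to 3.58). Chromosome 16 at 78572404 to 78573297 had 20 and 42 fragments (1.78, 1.02 to 3.20), chromosome 7 at 146627642 to 146628387 had 18 and 35 (1.65, 0.909 to 3.09), and chromosome 13 at 49367189 to 49367820 had 14 and 26 (1.57, 0.793 to 3.26). Their Tet2-/- peaks covered 73.3% to 89.3% of the bases. These 8 regions were picked for their ratios out of 304, so their intervals understate the uncertainty. In all, the interval left out 1 in 7 of the 304, with 4 lower and 3 higher in Tet2-/-. No such count was made for other pairs, and the reference of 1 leaves the general shift in place. Some 95% intervals leave out the true value through counting error alone, so the 7 are not read as changed regions. Among the 7 were 3 regions with more fragments, named after their values were seen. Chromosome 1 at 172321893 to 172322504 had 53 and 37 fragments (0.592, 0.378 to 0.918), chromosome 8 at 11504078 to 11504783 had 43 and 31 (0.611, 0.372 to 0.993), and chromosome 5 at 105356753 to 105357609 had 68 and 112 (1.40, 1.02 to 1.92).

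Coverage in the wider surroundings of these peaks was in most regions lower in Tet2-/- by the background depth ratio, though not once the general shift was removed. The expected pileup of the own lists came in steps equal to 1 fragment in a window of 10 kb, so it was read as the number of fragments in that window, the peak's own included. In the 398 regions where it exceeded the genome background in both libraries, the median was 136 fragments in Tet2+/+ and 139 in Tet2-/-, or 118 when depth-scaled. The median of the ratio was 0.875 (interquartile range 0.777 to 0.956), and it was under 1 in 327 of the 398 regions (82.2%, 78.0 to 85.8). The narrower shared peaks had a median of 0.919 and a share of 70.3% (68.9 to 71.7) of 4239. With the general shift of the summit ratios removed the medians were 1.00 and 1.06, and 49.0% of the broad and 36.1% of the narrower peaks had a ratio under 1. The ratio of surroundings itself had a median of 0.880 over 9381 autosomal Tet2+/+ peaks with a partner. The window contains the peak that was chosen for its width in Tet2+/+, so the difference between these classes is partly a matter of the choice. Across 292 paired regions the log2 ratios of summit and surroundings had a Pearson correlation of 0.61, as a description only, since the summit's fragments are part of the window. The summit held a median of 20.2% of the window's fragments in Tet2+/+, against 16.4% in the narrower peaks.

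In 113 regions (27.1%, 22.9 to 31.6) the summits lay more than 100 bp apart, against 23.1% of the narrower shared peaks. The median distance was 51 bp over all 417 and 50 bp in the narrower peaks, so the typical summit was placed as closely in both. Distances over 300 bp were found at 19 broad peaks (4.56%, 2.77 to 7.02) and 54 narrower ones (1.01%), which have less room for them. The largest was 580 bp, in the chromosome 6 region of 1093 bp described above. On chromosome 13 at 60746014 to 60746930 the summit lay 560 bp away, with 17 Tet2+/+ and 13 Tet2-/- fragments, and on chromosome 7 at 139978281 to 139979067 it lay 531 bp away, with 15 and 12. Some of these regions had nearly full coverage by a wide Tet2-/- peak, as on chromosome 10 at 20487771 to 20488435 (747 bp, summit 399 bp away) and chromosome 11 at 101296712 to 101297493 (852 bp, 364 bp away). There the called stretch was shared, while its highest point was called at different positions. Regions with displaced summits had fewer fragments, a median of 23 against 29 in the paired regions, and a lower fold, 6.43 against 8.03. Whether the displacement of a single region exceeds counting error was not tested.

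The 417 regions were spread over all 19 autosomes. Of them, 134 had no other Tet2+/+ summit within 50 kb, 139 had 1 and 144 had 2. These classes were alike in median width (667, 655 and 659 bp), in median fragments (26 each), in bases covered by Tet2-/- peaks (73.9%, 74.3% and 74.9%) and in summit ratio (0.885, 0.879 and 0.896). Summits over 100 bp apart were found in 20.1%, 27.3% and 33.3% of them. The median distance to the next Tet2+/+ summit was 28480 bp, against 27890 bp for the narrower shared peaks. Spacing in Tet2-/- was not used by the rule: 139 regions (33.3%) had a single Tet2-/- summit within 50 kb and 56 (13.4%) had 4 or more, against 31.7% and 11.5% of the narrower peaks. The intervals of the broad peaks (28.8 to 38.1 and 10.3 to 17.1) include the values of the narrower ones.

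Regions that the authors called higher in Tet2+/+ lay within 50 kb of 47 of the 417 summits (11.3%, 8.40 to 14.7). The share was 37.7% over all autosomal Tet2+/+ peaks, which include the called regions and the dense neighbourhoods, and 12.9% (12.0 to 13.8) over the narrower shared peaks chosen outside them. Regions higher in Tet2-/- lay within 50 kb of 11 (2.64%, 1.32 to 4.67), against 7.30% of all autosomal peaks and 3.83% of the narrower shared peaks. The proximity of broad shared peaks to changed regions was therefore not separated from that of narrower shared peaks.

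Broad peaks made up 7.27% (6.61 to 7.97) of the 5739 shared autosomal peaks outside dense neighbourhoods and direct calls. The share was highest on chromosome 16, with 24 of 243 (9.88%, 6.43 to 14.3), and on chromosome 11, with 40 of 407 (9.83%, 7.11 to 13.1). It was lowest on chromosome 17, with 10 of 220 (4.55%, 2.20 to 8.20). All intervals of single chromosomes include the value of the autosomes together, so no chromosome stood out at this number of peaks. The median share of bases covered ranged from 61.2% on chromosome 5 to 83.5% on chromosome 12.

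**Figure D5:**
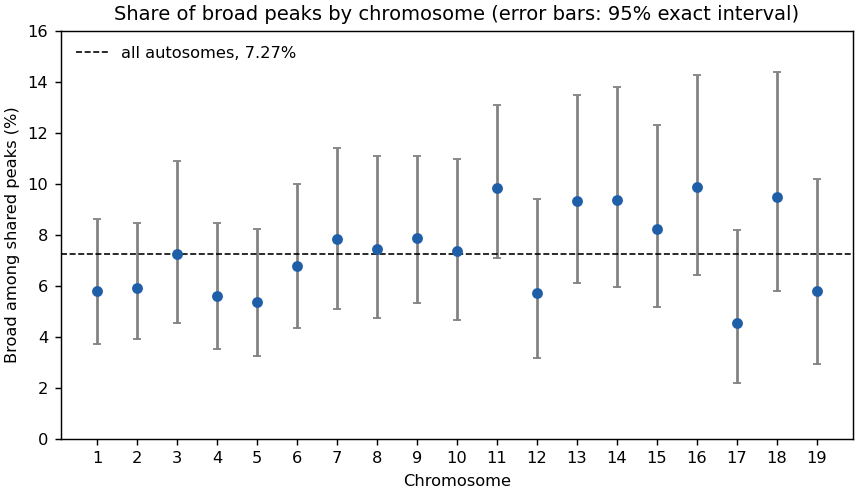
Share of broad peaks among the 5739 shared peaks outside dense neighbourhoods and direct calls (y axis, percent) on each autosome (x axis). Points are shares, error bars 95% exact intervals, and the dashed line marks 7.27% for all autosomes, which lies within every interval.

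Some broad shared peaks lay near each other. In 9 cases 2 of the 417 regions had summits within 50 kb, among them the chromosome 2 pair with high surroundings. The rule allowed fewer than 3 other Tet2+/+ summits within that distance and so limits this count. The 417 were 2.33% of the autosomal Tet2+/+ peaks, and no such count was made for other peaks, so whether 9 is few or many was not tested. On chromosome 14 the members of a pair, at 76482709 to 76483434 and 76518545 to 76519327, had 17 and 15 Tet2+/+ fragments, and Tet2-/- peaks covered only 31.3% and 34.6% of their bases. On chromosome 16 a pair at 90234835 to 90235463 and 90260080 to 90260719 had 42 and 34 Tet2+/+ fragments beside 45 and 31 in Tet2-/-, with 82.8% and 58.0% of bases covered. On chromosome 3 both members of a pair, at 144713301 to 144713901 and 144748468 to 144749068, were 601 bp wide, and 84.9% and 80.9% of their bases were covered. These pairs were named after their values were seen.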

How the data were processed

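5hmC was captured chemically from 1 Tet2+/+ and 1 Tet2-/- library of DNA sonicated to 200 to 400 bp. Bowtie2 and MACS2 are named with mm9 per the submitters' processing notes; versions and thresholds were not given in the sources used here. Peaks were called per library, and the 4 deposited lists hold own peaks and peaks against the other library, per the peak names. Per peak the authors deposited a summit fold, −log10 p and −log10 q values, a summit offset, and a score of 10 times the −log10 p, which was not used. The direct lists served only to leave out or locate regions.

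Fold and −log10 p together gave the summit fragments: in 100% of own peaks a whole number of fragments gave the −log10 p to within 0.001. The recovery assumes the MACS2 formulas, and on simulated data it returned 100% of 1914 counts. Expected pileups above background came in steps of 0.02, or 1 fragment of 200 bp in 10 kb. Starts were made 1-based. The nearest overlapping summit was taken as partner. Regions named were the 8 widest, the 8 of highest −log10 q, the 4 lowest and 4 highest ratios with at least 20 fragments, those at the width limit and, beyond that rule, examples chosen after their values were seen. The regions and the lists were chosen with earlier results of these data known. Planned gene lists, gene positions, CpG density and sequences need an mm9 genome, which was not used here. Alternatives were other limits of width, spacing, overlap and q, and the exchanged lists. Python 3.11.15, numpy 2.4.6, pandas 2.3.3, scipy 1.17.1 and matplotlib 3.10.9 were used.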

Additional observations from a re-analysis of the deposited data

How the results depend on the processing

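Over 12 alternative settings 30 values were recomputed for the number of regions, the median share of bases covered and the median summit ratio: 20 stayed within their interval or, for numbers, within 1.5 times, 9 moved farther and 1 reversed. A width limit of 500 bp gave 1139 regions and a limit of 800 bp gave 49, with 79.2% of bases covered. Fewer than 3 other summits within 100 kb left 237 regions, and fewer than 2 within 50 kb left 273. With −log10 q of at least 10, 77.3% of bases were covered. Exchanging the lists gave 245 regions, 84.2% covered and a ratio of 0.977. Fewer or more regions under other limits of width, spacing and q follow from those limits; for the exchanged lists and the shares the cause was not tested. Taking the median of all pairs as depth ratio turned the ratio from 0.883 to 1.01. Leaving out the 2 regions of high surroundings, an alternative added after seeing the data, moved none of the 3. Alternatives on CpG density and promoters were not run, as no mm9 genome was used. No paired analysis was possible because there was 1 library of each genotype. Single regions are limited by their fragments, a median of 26 in Tet2+/+.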

Other observations

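Broad peaks outside the autosomes were few. Chromosome X had 6 Tet2+/+ peaks of at least 600 bp among 202, of which 3 met the other conditions, with a median of 93.4% of bases covered by Tet2-/- peaks. The exchanged rule also gave 3 on X. Chromosome Y had 10 broad peaks among 76, and none of them met the conditions in either direction.

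Broad peaks without a Tet2-/- partner numbered 58 on the autosomes. Their median width was 639 bp, and 33 of them (56.9%, 43.2 to 69.8) overlapped a region called higher in 1 of the libraries. Broad shared peaks that overlapped a direct call had a median summit ratio of 0.577 and 68.7% of bases covered by Tet2-/- peaks, beside 0.883 and 74.6% in the 417 regions outside direct calls. Of the 264 peaks with a direct call, 253 overlapped a region called higher in Tet2+/+. Their lower ratio therefore follows from the split and is given as a description only.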
